A study of Mus musculus with 6 samples.

Results

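The distal 5 Mb of the mouse autosomes are the last stretch of each chromosome before its telomere. They were taken here as all autosomal cytosines within 5 Mb of the largest position listed for that chromosome in any library, and grouped in 500-bp tiles. A tile was kept where it held at least 3 cytosines listed in all 6 libraries. The rule used position only and no measured level. It gave 8913 tiles with 122736 cytosines, out of 163069 tiles on all nuclear chromosomes. The rest of the 19 autosomes held 149923 tiles.

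The data are reduced representation bisulfite sequencing (RRBS), in which DNA is cut at a CpG-containing site, converted with bisulfite and sequenced, so that an unmethylated cytosine reads as T and a methylated one as C. Genomic DNA came from male germ cells of mice exposed to chronic social defeat stress (CSDS, 3 libraries) and of Control mice (3 libraries). The labels give no strain, age, germ cell stage or number of animals per library, so p-values measure the spread between these libraries, which may be technical. CSDS libraries listed 2671515 to 3156788 cytosines and Control libraries 2420308 to 2638404, each with at least 10 reads. The median over 27 mitochondrial cytosines of the percent read as C was 8.497, 4.41 and 4.53% in CSDS libraries 1, 2 and 3 and 8.90, 8.84 and 10.04% in Control libraries 1, 2 and 3. Mitochondrial DNA is largely unmethylated. CSDS libraries 2 and 3 therefore stand apart from the other 4. Differences between groups are given as deposited. For the summaries, the lists and many named features they are also given after each level was corrected by the mitochondrial share s, as (level − s)/(1 − s). The promoters shown are given as deposited only. What sets the mitochondrial share was not tested.

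Mouse chromosomes are telocentric: one end carries the centromere with a very short arm, and the long arm runs to the distal telomere. The DNA before it is rich in genes on many chromosomes, and it holds well-known loci, among them the imprinted domain of H19 and Igf2 on chromosome 7 and the Hoxc cluster on chromosome 15. In male germ cells most of the genome is highly methylated and CpG-dense gene starts are not, while imprinted genes carry marks set according to the sex of the parent.

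The promoters of 4 genes show what a level in these regions is read from. The sequences are from RefSeq (GRCm38.p6), run from 250 bases before to 50 bases after a transcription start, and are written on the gene's strand with each CG in capitals. Trp73, which encodes the p53 relative p73, has a CpG-rich upstream start of low level (chr4:154139826-154140125, minus strand) and an internal CpG-poor start of high level (chr4:154097124-154097423, minus strand). Adcyap1, which encodes the neuropeptide PACAP, holds an intermediate level at the start shown (chr17:93198767-93199066, plus strand). Another covered start of Adcyap1, of lower level, is not shown. Tssc4 lies in the imprinted domain of chromosome 7 (chr7:143069118-143069417, plus strand). The promoter of 4833420G17Rik, on chromosome 13 (chr13:119462509-119462808, plus strand), overlaps a tile named later for its group difference. These 5 promoters were chosen after their values were seen.
Trp73 upstream start: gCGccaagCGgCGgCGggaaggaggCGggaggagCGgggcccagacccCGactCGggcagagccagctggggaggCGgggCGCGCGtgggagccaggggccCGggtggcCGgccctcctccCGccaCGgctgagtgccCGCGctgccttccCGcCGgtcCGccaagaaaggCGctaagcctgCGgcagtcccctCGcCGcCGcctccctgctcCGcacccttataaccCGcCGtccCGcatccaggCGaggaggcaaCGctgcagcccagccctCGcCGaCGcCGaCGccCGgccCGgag
Trp73 internal start: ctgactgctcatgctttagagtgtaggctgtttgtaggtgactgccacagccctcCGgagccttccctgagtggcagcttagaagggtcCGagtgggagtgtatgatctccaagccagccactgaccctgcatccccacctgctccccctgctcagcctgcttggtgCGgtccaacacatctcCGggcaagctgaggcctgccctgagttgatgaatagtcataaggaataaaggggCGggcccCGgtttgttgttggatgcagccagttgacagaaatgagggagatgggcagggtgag
Adcyap1: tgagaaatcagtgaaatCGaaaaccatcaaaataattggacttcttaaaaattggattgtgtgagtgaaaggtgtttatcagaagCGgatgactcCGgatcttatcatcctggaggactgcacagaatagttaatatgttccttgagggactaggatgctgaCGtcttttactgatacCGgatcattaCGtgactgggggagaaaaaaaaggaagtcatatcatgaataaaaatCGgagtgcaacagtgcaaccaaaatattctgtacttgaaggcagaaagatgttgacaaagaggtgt
Tssc4: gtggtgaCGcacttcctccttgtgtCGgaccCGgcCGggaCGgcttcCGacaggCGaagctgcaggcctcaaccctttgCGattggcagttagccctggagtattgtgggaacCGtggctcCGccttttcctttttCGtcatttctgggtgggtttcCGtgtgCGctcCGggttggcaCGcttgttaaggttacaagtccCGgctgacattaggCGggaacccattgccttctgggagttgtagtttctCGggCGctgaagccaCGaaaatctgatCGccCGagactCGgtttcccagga
4833420G17Rik: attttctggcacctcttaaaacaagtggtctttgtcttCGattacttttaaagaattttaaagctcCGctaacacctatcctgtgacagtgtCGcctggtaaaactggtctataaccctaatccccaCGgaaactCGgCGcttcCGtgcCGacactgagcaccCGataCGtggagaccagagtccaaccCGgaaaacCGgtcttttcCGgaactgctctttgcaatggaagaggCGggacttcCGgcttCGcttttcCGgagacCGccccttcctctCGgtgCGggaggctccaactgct

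At the upstream start of Trp73 the level was 8.31, 5.77 and 5.53% in CSDS libraries and 12.1, 20.6 and 10.4% in Control libraries, over 32 cytosines and 39 CG. At its internal start, with 6 CG, it was 95.4, 93.1 and 92.0% in CSDS libraries and 92.0, 92.4 and 95.2% in Control libraries, over 12 cytosines. The starts of 1 gene thus differ far more from each other than the groups do at either. The Adcyap1 promoter shown, with 7 CG, stood at 36.0, 37.9 and 36.9% in CSDS libraries and 37.9, 38.7 and 38.6% in Control libraries, over 6 cytosines. The Tssc4 promoter, with 23 CG, stood at 9.64% ± 2.20 in CSDS libraries and 14.6% ± 0.744 in Control libraries (SD, n = 3 each), over 46 cytosines, and that of 4833420G17Rik, with 20 CG, at 18.9% ± 1.53 in CSDS and 26.6% ± 2.03 in Control libraries (SD, n = 3 each), over 13. Of 1772 RefSeq promoters in the distal 5 Mb, 57.6% held CCGG, the 4 letters at which RRBS libraries are usually cut, against 53.2% of 29624 promoters in the rest of the autosomes and 53.5% of all 31396. The telomere repeat unit TTAGGG, searched on both strands, was present in 10.2% of distal promoters and 10.6% of those of the rest. CCGG reads the same on both strands, and neither motif can overlap the other.

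The distal 5 Mb were more densely covered than the rest of the autosomes, with a slightly larger share of CpG-dense tiles. After the top 0.1% of coverage of any library was left out, 8908 distal tiles and 149686 tiles of the rest remained, 93.8 and 63.3 tiles per Mb. A distal tile held a median of 7 cytosines and a tile of the rest a median of 6. Tiles with over 40 cytosines made up 7.87% of distal tiles and 7.24% of the rest. Reads per cytosine were alike, with a ratio of distal to rest from 1.001 to 1.015 in the 6 libraries. Of cytosines listed in any library, 67.0% of the distal ones and 66.4% of those in the rest were listed in all 6.

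Mean methylation of the distal tiles was 66.9, 65.1 and 65.2% in CSDS libraries and 67.8, 67.6 and 67.4% in Control libraries, tiles weighted equally. It was lower by 0.738 points (SD 0.0420, n = 6 libraries) than over all tiles of the rest, in 6 of 6 libraries (exact two-sided sign-flip test, p = 0.03125, the smallest that 6 libraries allow). Against tiles of the same autosome and of like CpG density, the difference was −0.0129 points ± 0.0518 (SD, n = 6). It was above 0 in 3 of 6 libraries and did not pass the exact sign-flip test (p = 0.594). The matched mean joins autosomes that lie on both sides of 0: it was +0.925 points without chromosome 15, +0.145 with autosomes weighted equally, −1.46 for the last 3 Mb and +1.26 for the last 10 Mb (exact sign-flip p = 0.03125 each). CpG density here means the number of listed cytosines in a tile, in the classes 3 to 5, 6 to 10, 11 to 20, 21 to 40 and over 40.

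Tiles of high level were slightly more frequent in the distal 5 Mb and tiles of middle level less frequent. The share of tiles at 80% or more was 59.3, 59.3 and 59.0% in CSDS libraries and 60.1, 59.7 and 59.7% in Control libraries. It exceeded that of matched tiles of the rest by 0.361 points ± 0.229 (SD, n = 6), in 6 of 6 libraries (exact sign-flip p = 0.03125). With autosomes weighted equally this difference was −0.129 points, for the last 3 Mb −1.78, for the last 10 Mb +2.10 and without chromosome 15 +1.65. Tiles between 20 and 80% differed in share by −0.376 points, lower in 6 of 6 libraries (exact sign-flip p = 0.03125). The share under 20% differed by 0.0157 points, which did not pass the test (p = 0.719, exact sign-flip).

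Level was much lower where CpG density was high, along nearly the same course in the distal tiles and in the rest. Distal tiles of 3 to 5 cytosines averaged 82.5% over the 6 libraries and the rest 82.7%. Those of 21 to 40 cytosines averaged 25.7% and the rest 25.3%, and those of over 40 averaged 11.4% and the rest 11.3%. The distal tiles were lower in 6 of 6 libraries in the sparsest class, by 0.220 points, and higher in 6 of 6 in the class of 21 to 40, by 0.373 points. Levels of distal tiles thus varied with density over a range far wider than any distance between distal and other tiles.

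**Figure D1:**
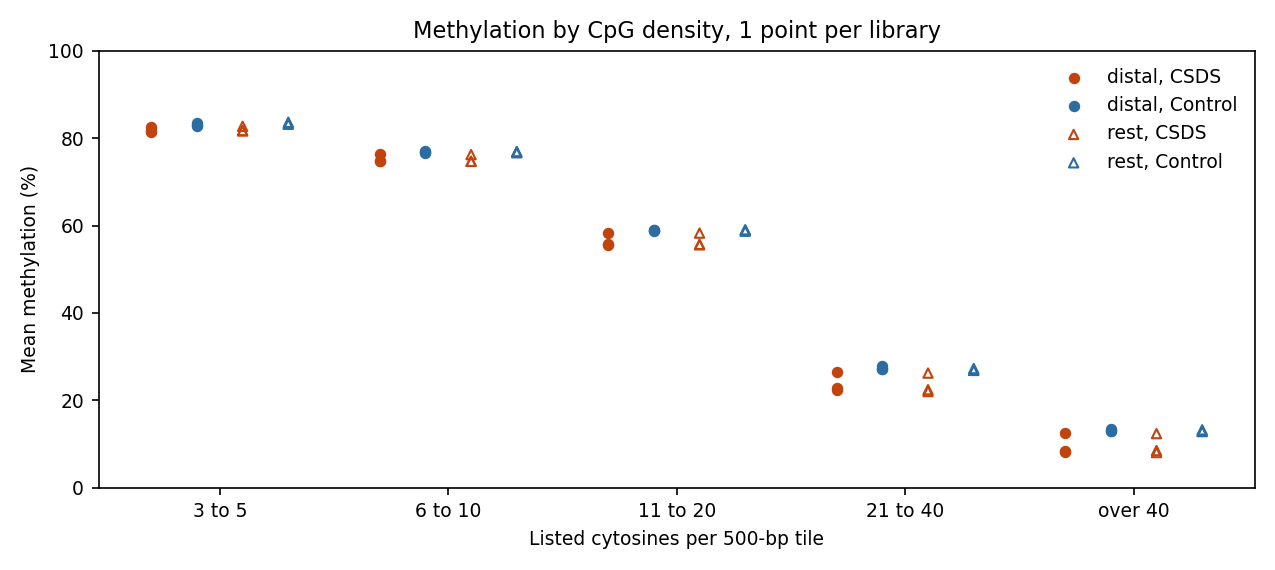
Mean methylation (%, y axis) of 500-bp tiles by the number of listed cytosines per tile (x axis), 1 point per library. Distal tiles (filled circles, CSDS then Control) run from 82.5% in the sparsest class to 11.4% in the densest, beside nearly equal values for the rest of the autosomes (open triangles, CSDS then Control).

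By position relative to genes, distal tiles pooled over autosomes differed from matched ones in each context, with single autosomes on both sides of 0. Within 1 kb of a RefSeq transcription start 1679 distal tiles averaged 23.8%, or 1.45 points above matched tiles of the rest, in 6 of 6 libraries. In gene bodies 4581 distal tiles averaged 78.3%, or 1.05 points above. In intergenic DNA 2522 distal tiles averaged 73.7%, or 1.95 points below (exact sign-flip p = 0.03125 for each of the 3 contexts). The intergenic difference was −0.496 points without chromosome 15. With autosomes weighted equally the gene start difference was +0.319 points the gene body difference −0.742 and the intergenic difference −0.727, so the sign in gene bodies depends on which autosomes carry the weight. Intergenic distal tiles were higher on 10 of 18 autosomes. Chromosome 18 was not used for these contexts.

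The autosomes differed more than any summary over them. Distal tiles were higher than matched tiles of the same autosome in all 6 libraries on 13 of the 19 autosomes and lower in all 6 on 5, chromosomes 5, 10, 12, 13 and 15, and chromosome 18 was mixed. The highest was chromosome 16, where 414 distal tiles exceeded matched ones by 5.10, 5.47 and 5.29 points in CSDS libraries and by 4.87, 4.40 and 4.98 points in Control libraries. Chromosome 4 followed with a mean of +3.57 points over 1067 tiles and chromosome 1 with +3.51 points over 336 tiles. The lowest was chromosome 15, where 863 distal tiles minus matched ones gave −8.46, −9.29 and −9.05 points in CSDS libraries and −8.35, −8.53 and −8.82 points in Control libraries. Chromosome 10 stood at −5.32 points over 608 tiles and chromosome 5 at −4.49 points over 638. The distance between chromosomes 16 and 15 is many times the spread between the 6 libraries on either (SD 0.371 and 0.369 points).

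**Figure D2:**
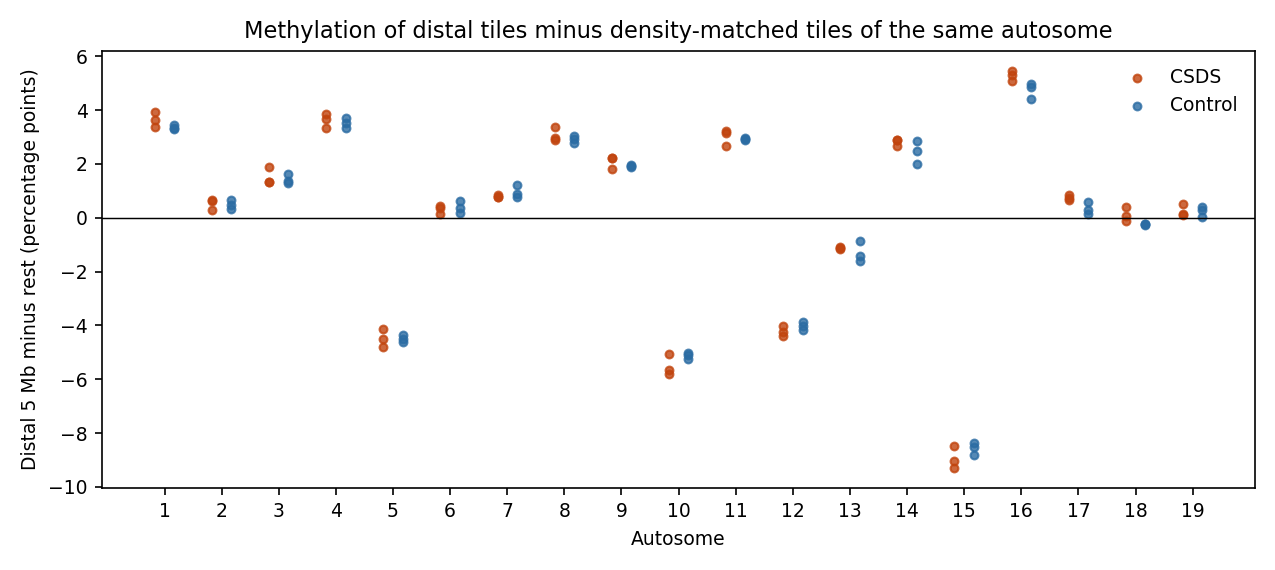
Distal 5 Mb minus density-matched tiles of the same autosome (percentage points, y axis) for each autosome (x axis), 1 point per library, CSDS left of Control. The 6 libraries lie close together on each autosome, from −8.75 points on average on chromosome 15 to +5.02 on chromosome 16.

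In steps of 1 Mb from the end, and against tiles of the same autosomes more than 10 Mb away at like density, the last Mb stood lowest. Its 1282 tiles lay at −4.49 points ± 0.0869 (SD, n = 6), in 6 of 6 libraries (exact sign-flip p = 0.03125), a value of −2.22 without chromosome 15 and −2.59 with autosomes weighted equally. The last Mb was singled out after its value was seen. The next steps, 1 to 2, 2 to 3, 3 to 4 and 4 to 5 Mb from the end, were at −0.499, +0.0972, +2.99 and +0.819 points. Outside the distal 5 Mb, the steps of 1 Mb from 5 to 10 Mb were at +3.28, +0.676, +1.54, +3.50 and +2.54 points. Only 9 of the 19 autosomes were higher in the last Mb, with a range over autosomes from −23.01 to +6.67 points and a median of −0.136. At the limit of the rule levels were averaged without matching for density. There 957 tiles in the outermost 0.5 Mb inside it averaged 72.3% in CSDS and 74.1% in Control libraries. The 1014 tiles in the 0.5 Mb just outside averaged 68.4% in CSDS and 70.2% in Control libraries.

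The last Mb of chromosome 15 was the lowest of the 93 distal blocks of 1 Mb that held at least 20 tiles. Its 140 tiles averaged 40.4% and lay 22.4 points under matched tiles of the rest of the chromosome, from −23.5 to −21.9 points in single libraries. It holds Hoxc4 to Hoxc11, homeobox genes that pattern the trunk and limbs, beside Cbx5, which encodes the heterochromatin protein HP1 alpha. Of 2102 blocks of 1 Mb in the rest of the autosomes, 2 were as low. The next Mb of the same chromosome, with Hoxc12, Hoxc13 and the keratin genes Krt8 and Krt18, stood at −11.2 points over 167 tiles, and the blocks farther in at −3.98, −2.80 and −6.30.

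Other low blocks lay on chromosomes 6, 9, 3 and 12. Of the 2102 blocks of the rest, 11, 30, 55 and 57 were as low as these, in that order. The last Mb of chromosome 6, with Bicd1, a dynein adaptor gene, and 51 tiles, stood at −17.8 points. That of chromosome 9, which holds the chemokine receptor genes Ccr1, Ccr2, Ccr3, Ccr9, Cxcr6 and Xcr1, stood at −13.2 points over 49 tiles. The block 3 to 4 Mb from the end of chromosome 3 holds Negr1, a neuronal adhesion gene, and stood at −11.6 points over 24 tiles. The block 1 to 2 Mb from the end of chromosome 12, with the transcription factor genes Sp4 and Sp8, stood at −11.5 points over 50 tiles.

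High blocks lay on chromosomes 3, 14, 2, 11 and 4. Of the 2102 blocks of the rest, 12, 31, 48, 61 and 73 were as high, in that order. The block next to that of Negr1, 4 to 5 Mb from the end, stood at +15.2 points over 20 tiles and holds Fpgt and Lrriq3. On chromosome 14 the block 1 to 2 Mb from the end, with the sodium leak channel gene Nalcn, stood at +12.9 points over 35 tiles. The block 2 to 3 Mb from the end of chromosome 2, with the cadherin gene Cdh4, stood at +12.2 points over 105 tiles. The blocks 3 to 4 Mb from the end were at +11.7 points over 221 tiles on chromosome 11, with the splicing factor gene Rbfox3, and at +11.004 over 168 tiles on chromosome 4, with Kcnab2 and Nphp4.

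Of the 93 blocks, 48 were higher in all 6 libraries, 39 lower in all 6 and 6 mixed. In the rest of the autosomes 49.5% of blocks were higher in all 6 libraries and 41.4% lower, against 51.6% and 41.9% of the distal ones. The SD over blocks was 6.65 points in the distal 5 Mb and 5.995 in the rest. This comparison has no test, since blocks share libraries and neighbours.

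**Figure D3:**
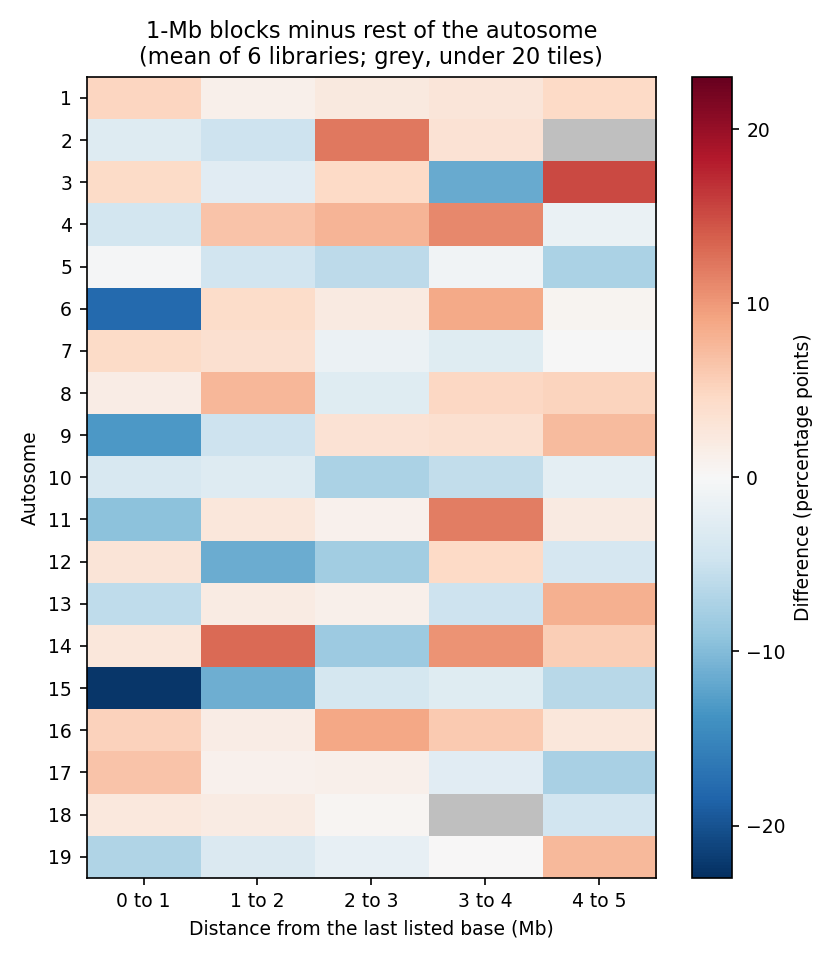
Methylation of each 1-Mb block minus density-matched tiles of the rest of its autosome (colour, percentage points, mean of 6 libraries), by autosome (rows) and distance from the last listed base (columns, Mb). The last Mb of chromosomes 15, 6 and 9 have the deepest blues, at −22.4, −17.8 and −13.2 points, and the block 4 to 5 Mb from the end of chromosome 3 has the deepest red, at +15.2.

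**Figure D4:**
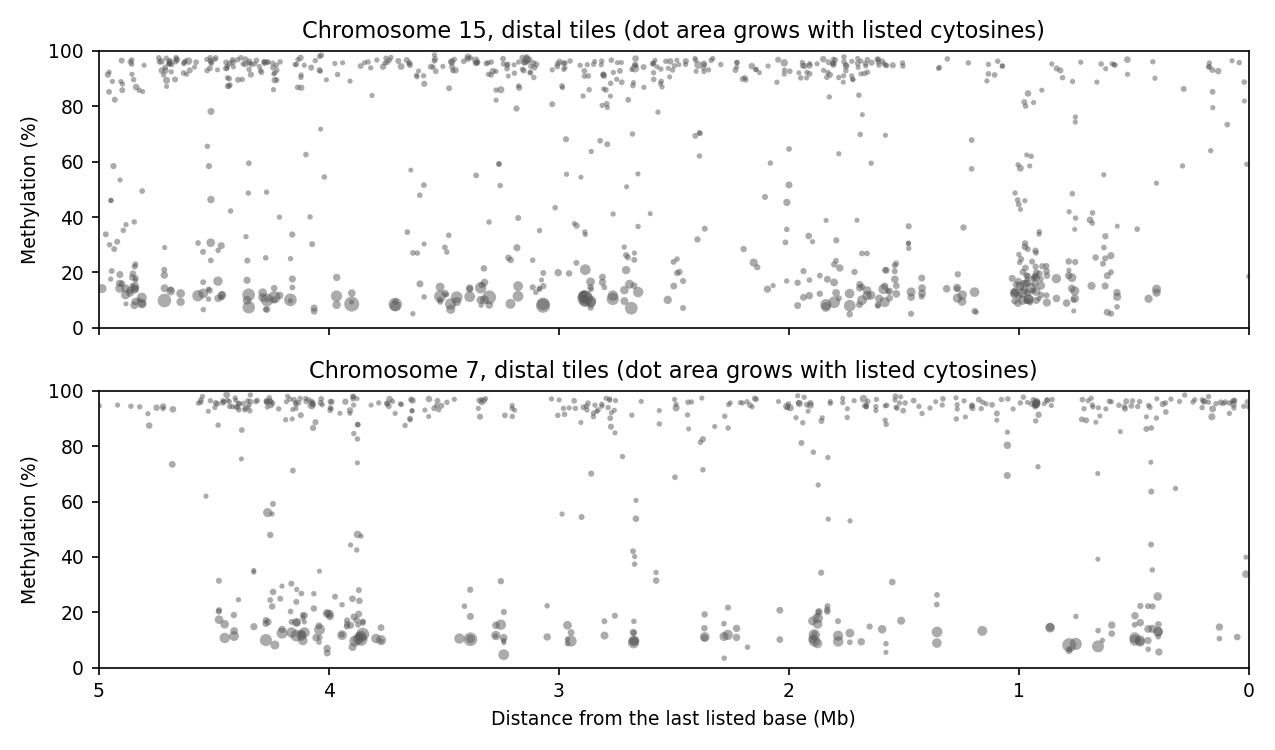
Methylation of single distal tiles (%, y axis, mean of the CSDS and Control means) against distance from the last listed base (Mb, x axis) on chromosomes 15 (top) and 7 (bottom); dot area grows with the number of listed cytosines. On chromosome 15 low tiles crowd about 1 Mb from the end, at the Hoxc cluster, while most tiles of few cytosines lie near the top in both panels.

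The tile nearest the end of each autosome had no common level. Of the 19, 8 stood at 80% or more, 2 under 20% and 9 between, with a median of 73.4%. The highest was on chromosome 11 (chr11:121981501-121982000, 4 cytosines), at 93.6, 97.0 and 93.2% in CSDS libraries and 97.2, 98.5 and 90.9% in Control libraries. The lowest was on chromosome 17 (chr17:94864501-94865000, 5 cytosines), at 11.6, 2.51 and 4.08% in CSDS libraries and 14.5, 14.1 and 8% in Control libraries. On chromosome 15 the last tile (chr15:103938501-103939000, 4 cytosines) stood at 18.8% ± 5.52 in CSDS libraries and 18.3% ± 1.52 in Control libraries (SD, n = 3 each).

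The comparison of CSDS with Control asks whether social defeat goes with a change of methylation in the germ line. As deposited the distal tiles averaged 65.7% ± 1.06 in CSDS libraries and 67.6% ± 0.167 in Control libraries (SD, n = 3 each), a difference of −1.87 points. The groups did not overlap, and the exact two-sided permutation p was 0.1, the smallest that 3 against 3 libraries allow. After correction by the mitochondrial share the levels were 63.9, 63.4 and 63.5% in CSDS libraries and 64.6, 64.4 and 63.8% in Control libraries. The corrected difference was −0.666 points, with groups that overlapped (exact permutation p = 0.2). Density-matched tiles of the rest differed by −1.89 points as deposited and by −0.698 after correction. The distal difference minus that of the rest was +0.0298 points (exact permutation p = 0.6), smaller than the spread between libraries of 1 group (SD 0.0505 in CSDS and 0.0592 in Control).

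**Figure D5:**
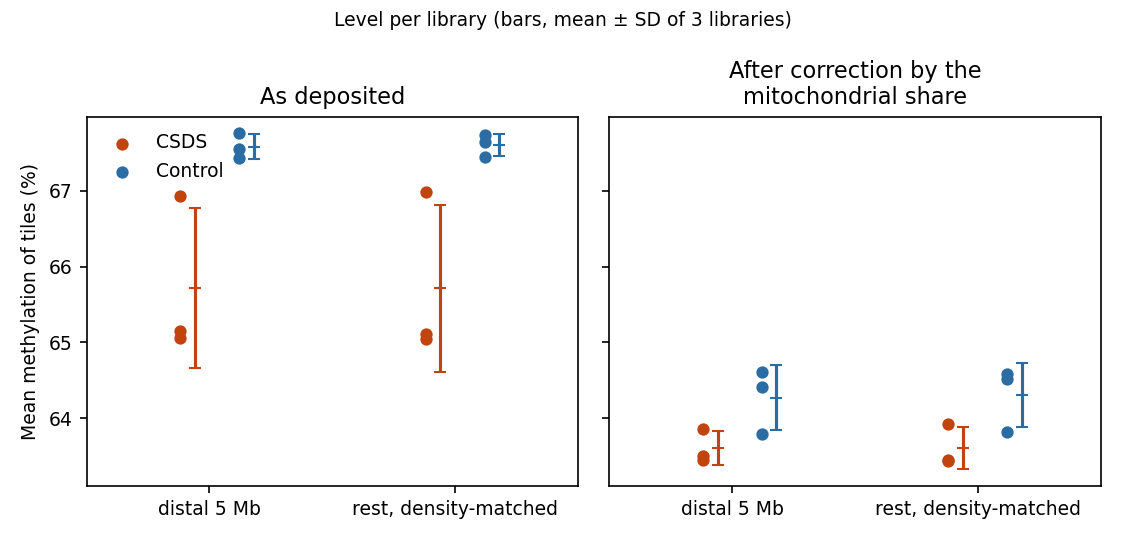
Mean methylation (%, y axis, which does not start at 0) of distal tiles and of density-matched tiles of the rest, CSDS left of Control, as deposited (left panel) and after correction by the mitochondrial share (right panel); bars are the mean ± SD of 3 libraries. The distance between the groups is −1.87 points in the distal tiles and −1.89 in the rest as deposited, and −0.666 and −0.698 after correction.

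CSDS libraries were lower on average in the distal tiles of 19 of 19 autosomes, with groups apart on 14 as deposited. The density-matched tiles of the rest were lower on 19 as well, with groups apart on 19. After correction CSDS libraries were lower in the distal tiles of 19 autosomes, with groups apart on 8. The smallest Benjamini-Hochberg adjusted p over the autosomes for the distal tiles was 0.136 as deposited (exact permutation). The largest difference as deposited was on chromosome 10, at 60.7, 58.0 and 58.1% in CSDS libraries and 61.4, 61.3 and 61.0% in Control libraries. After correction it was on chromosome 7, at −0.896 points, with groups that overlapped, and chromosome 10 was at −0.831. On chromosomes 16, 17 and 18 the distal difference minus that of the rest was positive with groups apart, at +0.536, +0.412 and +0.343 points, each with an adjusted p of 0.633.

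Split by level, distal tiles under 20% averaged 10.5% ± 2.57 in CSDS and 14.2% ± 0.290 in Control libraries (SD, n = 3 each), a difference of −3.68 points that was −0.430 after correction. Those from 20 to 80% differed by −3.16 points as deposited and by −1.14 after correction. Those of 80% or more averaged 92.8% ± 0.195 in CSDS and 93.7% ± 0.230 in Control libraries (SD, n = 3 each), a difference of −0.814 points, and of −0.607 after correction. Only in the last class were the groups apart after correction (exact permutation p = 0.1), and the same class of the rest showed −0.571 points with groups apart.

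A tile was called where CSDS and Control differed by 10 points or more and the adjusted p was below 0.05 (quasi-binomial model with limma's moderated dispersion, Benjamini-Hochberg over 162809 tiles). By this rule 0 of 8908 distal tiles were called, against 0% of all tiles. At an unadjusted p under 0.05 there were 1457 of 8908 distal tiles, or 16.4%, against 15.6% of all tiles. limma and edgeR called 0 as well (0% of all tiles). At an unadjusted p under 0.05 they gave 793 and 1155 of 8908 distal tiles, against 14904 and 20094 of all 162809 tiles. CSDS libraries lay under all Control libraries in 1476 distal tiles, or 16.6%, against 15.7% of all tiles, and above them in 150, or 1.68%, against 1.8%. After correction these shares were 7.98% lower and 3.57% higher, against 7.67% and 3.71% of all tiles. Each distal share lies near the share over all tiles. Without CSDS replicate 1, the CSDS library with a mitochondrial share near Control, the fit called 112 distal tiles lower in CSDS (1.26%, against 1.42% of all tiles) and 3 higher (0.0337%, against 0.0172%).

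The tiles named next have the smallest unadjusted p where the groups were apart, 10 in each direction, and none passed the adjusted test (adjusted p 0.174 for each of the lower ones). The lowest p was at chr4:153079501-153080000, outside any gene of the RefSeq table, with Ajap1 as the nearest coding gene at 293522 bases. Its 29 cytosines stood at 51.4, 49.6 and 45.8% in CSDS libraries and 65.7, 62.7 and 61.1% in Control libraries, a difference of −14.2 points and of −13.6 after correction. A larger difference stood at chr6:149401501-149402000, near Bicd1 in the low last Mb of chromosome 6, with 17.8, 14.4 and 14.5% in CSDS libraries and 39.3, 27.2 and 32.3% in Control libraries over 12 cytosines. The rule that named both tiles asked for groups apart.

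The tile at the start of 4833420G17Rik (chr13:119462501-119463000), whose promoter sequence is given above, stood at 15.8, 15.5 and 13.4% in CSDS libraries and 23.4, 28.2 and 23.9% in Control libraries, over 25 cytosines. On chromosome 18 the tile chr18:85621001-85621500 stood at 41.7% ± 3.42 in CSDS libraries and 53.1% ± 1.37 in Control libraries (SD, n = 3 each). The remaining lower tiles lay in Ripk4, a kinase gene of the epidermis, in Sox18, a vascular transcription factor gene, in Mrgbp, in Grasp on chromosome 15 with 2 tiles, and where Dnajc14 and Tmem198b overlap. Their differences ran from −9.26 points in Sox18 to −5.08 in Dnajc14, and from −6.70 to −2.0 after correction. Their levels were low, with CSDS means from 5.47 to 18.1% and Control means from 13.9 to 23.7%.

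The 10 tiles that were higher in CSDS held 3 to 11 cytosines, and in 8 of them both group means were over 80%. Their adjusted p ran from 0.174 to 0.246. At chr15:98983501-98984000, 9 cytosines stood at 94.2, 90.5 and 92.9% in CSDS libraries and 78.1, 85.3 and 70.1% in Control libraries, a difference of +14.8 points. In Perm1, a muscle regulator gene, chr4:156214001-156214500 stood at 54.7, 48.4 and 50.4% in CSDS libraries and 44.6, 38.2 and 32.8% in Control libraries, over 5 cytosines. In Itgbl1 the tile chr14:123709001-123709500 averaged 95.8% ± 1.00 in CSDS and 83.6% ± 7.0 in Control libraries (SD, n = 3 each) over 3 cytosines. Without CSDS replicate 1, the tiles on chromosomes 4, 13, 6 and 18 and that in Sox18 were called lower, at −15.5, −10.8, −18.4, −13.1 and −10.1 points, and that at chr15:98983501-98984000 was called higher, at +13.9. The other higher tiles lay in Sipa1l2, Bcat1, Rnf213 and Ints7 or between genes, with differences from +2.21 to +8.04 points.

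Gene windows of 1 kb on either side of a transcription start, or of a gene end where the reference gives no start, were measured for 817 of 1104 distal coding genes, 659 of them at a start and 158, Sox18 and Hoxc9 among them, at the gene end with more cytosines. No window passed the test over 14572 windows, of which 0% were called (quasi-binomial model, smallest adjusted p 0.113). At an unadjusted p under 0.05 there were 361, or 44.2%, against 41.1% of all windows. The groups were apart with CSDS lower in 304, or 37.2%, against 37.1% of all windows. CSDS was higher with groups apart in 2, AF067063 and Xirp1, or 0.245% against 0.165%. The median difference was −3.32 points over the distal windows and −3.41 over all windows, and −0.208 and −0.271 after correction. After correction 78 distal windows had groups apart with CSDS lower, or 9.55% against 7.78% of all windows, and 31 with CSDS higher, or 3.79% against 4.06%. Without CSDS replicate 1 the fit called 12 distal windows lower (1.47%, against 1.33% of all windows) and 1 higher (0.122%, against 0.00686%), the higher one being AF067063.

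Prlhr, which encodes a receptor of prolactin-releasing peptide, was the one distal window called, by adjusted p and by a difference of 10 points, with limma (adjusted p 0.00151) and with edgeR (0.00091), where the quasi-binomial model gave 0.113. Other distal windows, Sox18 and Dazap2 among them, had an adjusted p under 0.05 with both tools and a difference under 10 points by the mean of cytosines. The smallest limma adjusted p of a distal window, 3.34e-12, was not that of Prlhr but of a window with a difference under 10 points. Of all windows limma called 0.295% and edgeR 0.261%. Its window (chr19:60467554-60467859, 41 cytosines) stood at 7.64, 5.32 and 4.05% in CSDS libraries and 20.5, 8.48 and 18.2% in Control libraries. Control library 2 lay close to the CSDS libraries there, so the groups were apart by less than 1 point. The difference was −10.1 points, and −7.32 after correction. The corrected groups overlapped, with Control library 2 inside the range of the CSDS libraries. Without CSDS replicate 1 the difference as deposited was −11.1 points, and the window was called by the quasi-binomial model (adjusted p 0.000167). That fit was not corrected and keeps only the CSDS libraries of low mitochondrial share.

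Among distal windows with groups apart, Sox18 had the smallest p in the quasi-binomial fit, over 43 cytosines (chr2:181669172-181670619). It stood at 22.6, 19.5 and 19.07% in CSDS libraries and 25.1, 24.5 and 26.8% in Control libraries, a difference of −5.09 points by the mean of cytosines. With reads summed the difference was −16.2 points, and limma and edgeR gave adjusted p of 0.0206 and 0.0115 on those counts. Hoxc9 followed with 14.2, 12.1 and 14.1% in CSDS libraries and 22.2, 22.7 and 18.8% in Control libraries (chr15:102976058-102977763, 66 cytosines), a difference of −7.80 points and of −5.12 after correction.

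The other lower windows by this order were those of Ssu72, a phosphatase gene of RNA polymerase II, Ripk4, Sprtn, a DNA repair protease gene, Exoc8, whose window overlaps that of Sprtn, Zranb2, Dazap2 and Tssc4. They differed by −5.40 to −3.95 points, and by −2.32 to −0.754 after correction, each with an adjusted p of 0.113 by the quasi-binomial model. For Dazap2 limma gave an adjusted p of 0.0398 and edgeR of 0.0271. AF067063 averaged 91.5% ± 2.88 in CSDS and 82.2% ± 2.13 in Control libraries (SD, n = 3 each) over 3 cytosines (difference +10.95 points and called without CSDS replicate 1, adjusted p 0.0447), and Xirp1, a muscle actin-binding protein gene, 95.6% ± 1.15 in CSDS and 91.4% ± 0.296 in Control libraries (SD, n = 3 each) over 13.

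A pair of imprinting control regions of distal chromosome 7 was covered, one of them by few cytosines. In the control region of H19, methylated in the paternal germ line (chr7:142581142-142581188, 4 cytosines), the level was 94.8, 95.7 and 94.5% in CSDS libraries and 98.5, 96.5 and 98.5% in Control libraries (exact permutation p = 0.1). In that of Kcnq1ot1, methylated in oocytes and not in sperm (chr7:143295375-143295618, 35 cytosines), it was 16.7, 14.2 and 12.5% in CSDS libraries and 17.2, 16.8 and 16.3% in Control libraries (exact permutation p = 0.2). After correction the Kcnq1ot1 difference was +0.915 points and the H19 difference −2.96. The pair is high at H19 and low at Kcnq1ot1 in all 6 libraries. The gene window of H19 itself, outside that control region, stood at 32.0, 33.7 and 30.2% in CSDS libraries and 33.1, 36.1 and 32.6% in Control libraries over 14 cytosines. The labelled cell type was checked by these values alone, of which the high one rests on 4 cytosines.

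Gene lists were counted over their distal members, and no member of any list passed the quasi-binomial test over all windows. Of 16 imprinted-domain genes 13 were measured and 13 were lower in CSDS, with groups apart in 3 and a median difference of −3.69 points. Over the 14572 windows the median was −3.41, with 96.4% lower in CSDS, 37.1% lower with groups apart and 58.4% lower after correction. Cd81, a tetraspanin gene, differed most, at 10.7, 6.80 and 6.23% in CSDS libraries and 12.1, 13.8 and 16.6% in Control libraries. Tssc4 differed by −4.75 points, Dhcr7, of cholesterol synthesis, by −4.14 and Nap1l4, a histone chaperone gene, by −4.10. The gene window Dhcr7 was at −1.05 without Control replicate 1, −2.71 without CSDS replicate 3 and −6.61 without CSDS replicate 1, and Nap1l4 at −2.64 without CSDS replicate 2 or Control replicate 2 and −6.16 without CSDS replicate 1. After correction 9 of the 13 were lower (58.4% of all windows), with a median of −0.615. Cd81, Tssc4, Dhcr7 and Nap1l4 then differed by −3.20, −1.65, −1.07 and −0.744 points.

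Of 11 Hox and other homeobox genes 11 were measured and lower in CSDS, with groups apart in 7 (37.1% of all windows) and a median difference of −4.48 points. After correction 10 of 11 were lower, with a median of −1.73 against −0.271 over all windows, where 58.4% were lower. Hoxc4 stood at 15.01, 9.29 and 11.8% in CSDS libraries and 21.5, 17.5 and 19.17% in Control libraries. Hoxc8 differed by −5.73 points and Hoxc13 by −5.08, and both had their groups apart as deposited. After correction Hoxc4, Hoxc8 and Hoxc13 differed by −4.56, −2.74 and −1.95 points. Hoxc12 differed by −4.48 points by the mean of cytosines and by +0.700 with reads summed. The Hoxc windows lie side by side in 1 cluster and are not independent of each other. None passed the adjusted test (smallest adjusted p 0.113, quasi-binomial model).

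Of 17 other developmental transcription factor genes 16 were measured and lower in CSDS, with groups apart in 9 (37.1% of all windows) and a median of −3.51 points. After correction 8 were lower (58.4% of all windows), with a median of −0.266. Trp73 stood at 14.8, 9.39 and 10.5% in CSDS libraries and 17.2, 22.4 and 16.5% in Control libraries around its upstream start. Sp7, of bone, differed by −5.50 points, Sp8, of the limb bud, by −5.47 and Sox18 by −5.09. After correction Trp73, Sp7, Sp8 and Sox18 differed by −4.26, −2.35, −2.34 and −2.40 points. Of the 16, 15 stood under 20% over the 6 libraries.

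Of 9 germ line and meiosis genes 8 were measured and lower in CSDS, with groups apart in 3 (37.1% of all windows) and a median of −3.81 points. After correction 6 were lower (58.4% of all windows), with a median of −0.530. Tex19.1, a germ line gene that restrains retrotransposons, had an intermediate level of 39.3, 34.6 and 30.5% in CSDS libraries and 44.1, 49.9 and 42.3% in Control libraries over 13 cytosines. Its difference was −10.6 points, and −9.04 after correction, with an adjusted p of 0.193 (quasi-binomial model), and −12.9 points with an adjusted p of 0.013 without CSDS replicate 1. Tmprss2, a serine protease gene known from epithelia and the prostate rather than the germ line though counted in the list, differed by −6.51 points, Rtel1, a helicase gene of telomere maintenance, by −4.75 and Nanos1, an RNA-binding regulator of germ cells, by −3.87. As deposited, Rtel1 was at −2.72 without CSDS replicate 3 and −7.29 without CSDS replicate 1. After correction Tmprss2, Rtel1 and Nanos1 differed by −3.55, −1.56 and −0.586 points. Tex14 lies outside the distal 5 Mb.

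Of 14 signalling genes 11 were measured and lower in CSDS, with groups apart in 6 (37.1% of all windows) and a median of −3.41 points. After correction 6 were lower (58.4% of all windows), with a median of −0.0300. Besides Prlhr, Vipr2, a receptor gene of vasoactive intestinal peptide, differed by −5.44 points, Fgf3 by −5.24 and Fgf15, both fibroblast growth factor genes, by −3.70. After correction Vipr2, Fgf3 and Fgf15 differed by −2.60, −2.06 and −0.489 points. Of 12 neuronal genes 11 were measured: 9 were lower and 2 higher in CSDS, with groups apart in 4 (37.1% of all windows) and a median of −2.42 points. After correction 1 of the 11 was lower (58.4% of all windows), with a median of +0.894. Ntsr1, a neurotensin receptor gene, stood at 15.9, 10.6 and 10.7% in CSDS libraries and 18.96, 19.8 and 18.7% in Control libraries and was the member lower after correction. Gabrd, a GABA receptor subunit gene measured at a gene end, stood at 94.2, 95.5 and 96.1% in CSDS libraries and 82.3, 95.5 and 92.1% in Control libraries. Its difference of +5.32 points was −1.66 with at least 20 reads per cytosine, +1.49 without Control replicate 1 and +8.09 without Control replicate 2. Cdh4 differed by −2.996 points as deposited and by +0.420 after correction.

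Of 12 genes listed as broadly expressed 12 were measured and lower in CSDS, with groups apart in 6 (37.1% of all windows) and a median of −4.04 points. After correction 8 were lower (58.4% of all windows), with a median of −0.848. Cdk4, a cell cycle kinase gene, stood at 17.6, 12.3 and 11.9% in CSDS libraries and 26.1, 15.6 and 19.21% in Control libraries, and its difference of −6.32 points was −3.42 without Control replicate 1. Hgs differed by −4.72 points, Nnt by −4.67 and Gnb1 by −4.23. After correction Cdk4, Hgs, Nnt and Gnb1 differed by −3.46, −1.65, −1.65 and −1.02 points. The genes of this list thus had a median difference within the range of the other lists. None of the 8 distal chemokine receptor genes had a window with 3 listed cytosines, although their Mb was among the lowest of the distal blocks.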

How the data were processed

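RRBS of genomic DNA from male germ cells was deposited for 3 CSDS and 3 Control libraries, whose titles give the group. The submitters' processing notes name Trim Galore 0.5.0, Bismark 0.20.0 and the build GRCm38. Per the file headers, the deposited tables hold, per cytosine, its coverage (a read count) and the percent of those reads with C or with T. No listed position has a coverage under 10. Conversion rate and duplicate handling are not given in the sources used here. No molecular identifier is named in the labels, so coverage speaks to counting error only.

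Percent times coverage was whole at every position (tolerance 1e-06). Cytosines listed in all 6 libraries were used, without the top 0.1% of coverage of any library. A tile's level is the mean of its cytosines' percents, and strands were kept apart. The rest of the autosomes was weighted to the distal tiles over autosome and density class. Tiles and windows were tested with a quasi-binomial logistic model on summed counts (dispersion moderated with limma 3.58.1 and held at 1 or above, Benjamini-Hochberg over all features). On simulated tiles it recovered 15 of 100 tiles changed by 20 points, with 0 false calls. Of tiles changed by 10 points it recovered 1 of 100, counted without the minimum difference of 10 points. Alternatives were limma on the log2 ratio of methylated to unmethylated counts, each with a pseudocount of 1, edgeR 4.0.16, another coverage minimum, no cap, other window sizes, and leaving out each library. R 4.3.3 and Python 3.11.15 were used.

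Contexts and sequences come from RefSeq tables of GRCm38.p6, which give no exons or introns. The members and lists were chosen with earlier results of these data known. Named features are, in each direction, the 10 tiles and windows with groups apart and the smallest unadjusted p, up to 4 members per list of largest difference (1 is not reported here), both imprint regions, the last tile and the 3 highest and 3 lowest autosomes. The named blocks, the last Mb and the promoters shown were chosen after their values were seen. Imprint regions were placed by approximate known positions. Replicate numbers did not pair the libraries.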

Additional observations from a re-analysis of the deposited data

How the results depend on the processing

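The matched distal difference of −0.0129 points changed sign with autosomes weighted equally (+0.145), without chromosome 15 (+0.925, chosen after seeing the data), with a coverage minimum of 20 (+0.0852), with tiles of at least 5 cytosines (+0.255) and with a window of 10 Mb (+1.26). A window of 3 Mb gave −1.46, past the test. Without each library in turn it ran from −0.0253 to +0.00281, above 0 only without Control replicate 2. The excess of tiles at 80% or more changed sign with autosomes weighted equally (−0.129) and with 3 Mb (−1.78), and ran from 0.280 to 0.395 points without each library. The last Mb ran from −4.52 to −4.47. With 5 libraries the smallest exact sign-flip p is 0.0625, so these cannot pass. The distal group difference minus that of the rest, +0.0298, was −0.00151 with 3 Mb and ran from −0.00194 to +0.0567 without each library. The cause of these changes was not tested. The distal group difference kept its sign under every alternative run, and none can pass at 3 against 3.

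Without CSDS replicate 1 the fit called 115 distal tiles and 13 distal gene windows, and without any other library 0. In the fit without CSDS replicate 1 group and mitochondrial share cannot be told apart. limma and edgeR each called 1 gene window (Prlhr). The other fits called 0, including those with the replicate block and with counts rebuilt from the mean of the percents. The correlations of same-numbered libraries over distal tiles were −0.0400, −0.0598 and −0.0343, so the numbers were not read as pairs. Under the replicate block as paired sign flips, the distal difference of −1.87 points had an exact p of 0.25, the smallest 3 pairs allow.

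Of 960 alternative values for 71 named tiles, windows, autosomes and blocks, 2 changed sign: Gabrd with a coverage minimum of 20 (−1.66) and Cdh4 after the mitochondrial correction (+0.420). Many of these values could not change sign, so the count is no measure of robustness. The limma, edgeR, replicate block and rebuilt-count alternatives keep the main difference. Features with groups apart keep their sign whichever library is left out. Of the distal tiles 36.1% rest on 3 to 5 cytosines, which limits the precision of single tiles.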

Other observations

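Single distal tiles varied among libraries of 1 group about as much as tiles of the rest. The median SD over the 3 libraries was 2.40 points in CSDS and 2.01 in Control for distal tiles, and 2.43 points in CSDS and 2.06 in Control for the rest of the autosomes.

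Of the last tiles before the chromosome ends, 13 of 19 had the lower mean in CSDS, and in 2 the groups did not overlap, against 73.7% of all tiles lower and 15.7% lower with groups apart. On chromosome 9 (chr9:124490001-124490500, 4 cytosines) the level was 73.2, 73.1 and 70.6% in CSDS libraries and 83.7, 82.2 and 76.5% in Control libraries. On chromosome 14 (chr14:124779501-124780000, 16 cytosines) it was 75.1, 80.76 and 72.7% in CSDS libraries and 88.2, 80.81 and 85.2% in Control libraries, where CSDS library 2 and Control library 2 nearly met.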
